A study of Mus musculus with 6 samples.

Results

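The aminoacyl-tRNA synthetases are the enzymes that load each tRNA with its amino acid. The 36 genes described here were chosen by name, as cytosolic and mitochondrial synthetases of the mouse, with earlier results of these data known. All 36 were found among the 16312 genes of the count table. Of these, 20 encode cytosolic enzymes and 16, whose symbols end in 2, encode mitochondrial enzymes.

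RNA was sequenced from haematopoietic stem cells (HSCs), the cells that renew all blood lineages, sorted by flow cytometry from bone marrow. The study compared 3 young male mice, aged 8 to 12 weeks, with 3 old male mice, aged 22 months. The series title gives the strain as C57BL/6N. The labels call both groups B6 controls under a heading on parabiosis, the surgical joining of animals, and name no transgene, deletion or agent for either group. In bulk RNA such as this, fewer cells of a type and less RNA per cell cannot be told apart.

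A synthetase couples its amino acid to the matching tRNA at the cost of ATP, and the ribosome then takes whatever the tRNA carries, so these enzymes set the accuracy of translation. Cytosolic and mitochondrial translation use largely separate sets of synthetases, all encoded in the nucleus, although the glycine and lysine enzymes (Gars, Kars) serve both compartments. Many cytosolic synthetases are known targets of Atf4, a transcription factor that is made when amino acids run short or proteins misfold.

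Totals per library ran from 12494557 counts in old replicate 2 to 30931680 in young replicate 3. All 12 HSC markers examined were measured, with Kit between 826 and 930 CPM and Hlf between 996 and 1450 CPM in the 6 libraries (CPM, the counts of a gene over its library's scaled total). Of the 12, edgeR called 2, both higher in old HSCs, Slamf1 at a log2 value of 1.47 (adjusted p = 0.00103) and Procr at 0.95 (adjusted p = 0.00097), and 6 were higher and 0 lower at an unadjusted p under 0.05. Over all genes tested, 8.84% were higher and 7.63% lower at that unadjusted p (edgeR). Markers of other blood cells were also present, and differently by age. The summed level of 12 erythroid genes was 362, 136 and 112 CPM in young replicates 1 to 3 and 73.9, 73.0 and 68.8 CPM in old replicates 1 to 3, with Rhd at 0 in all old libraries, and 3 of the 9 that could be tested fell. The 14 macrophage genes summed to between 226 and 260 CPM in young and 212 and 231 CPM in old libraries, and 8 of the 13 that could be tested fell, with Fcna, Cd5l, C1qb and Adgre1 at 0 in all old libraries. Most of each sum was Lyz2, at 129 to 174 CPM in young and 171 to 199 CPM in old libraries (log2 0.33, edgeR, adjusted p = 0.253). The 9 neutrophil genes summed to 264 CPM in young replicate 1 and to between 45.8 and 103 CPM in the other 5 libraries, and 4 of 6 tested fell and 1 rose. Of 4 lymphoid genes tested edgeR and DESeq2 called 0, with 1 lower at an unadjusted p under 0.05. The part of these cells in the results below was not tested.

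Of the 36 synthetase genes, 2 passed the test between ages and the rest did not. Lars2, the mitochondrial leucine enzyme, rose in old HSCs and Hars, the cytosolic histidine enzyme, fell. These 2 genes are 5.56% of the members, beside 3.99% of all 14288 genes tested, of which 2.45% rose and 1.54% fell (edgeR's quasi-likelihood test, adjusted p under 0.05). DESeq2 on the same counts called Hars and Yars, beside 7.7% of all genes, and limma-voom called Lars2 alone, beside 3.95% of all genes. Fold changes were small. The log2 change from young to old lay within 0.5 of 0 for 29 of the 36 members, with standard errors (SE) from 0.10 to 0.69. The plot of log2 fold changes shows the cytosolic genes mostly on the lower side, with 15 of 20 below 0 and a median of −0.20, and the mitochondrial genes about evenly spread, with 9 of 16 below 0 and a median of −0.04. Over all genes tested the median was −0.02, with 51.8% below 0.

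**Figure D1:**
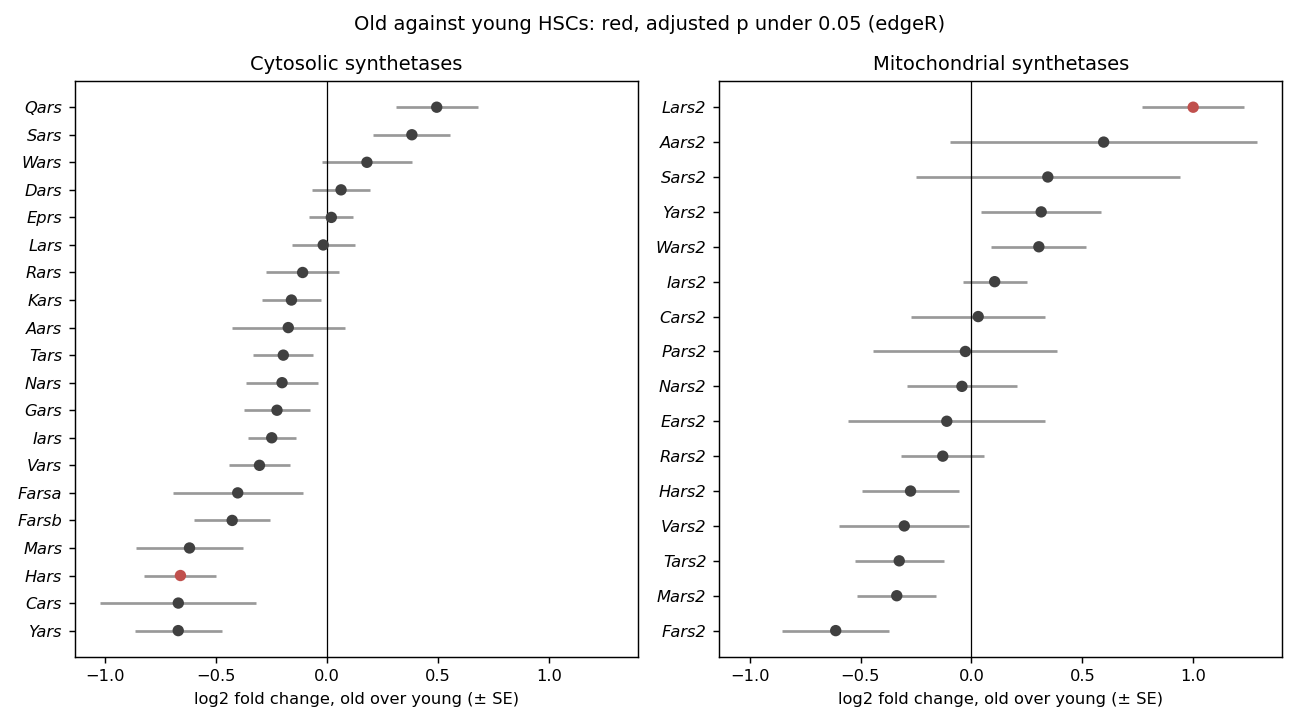
Log2 fold change of each synthetase gene, old over young (x axis), with bars of 1 SE, from the fit over 6 libraries. The only red points, called by edgeR at an adjusted p under 0.05, are Hars at −0.66 among the cytosolic genes and Lars2 at 1.00 among the mitochondrial genes.

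Looser measures counted more of the members. An unadjusted p under 0.05 was reached by 10 members (27.8%), 3 higher and 7 lower in old HSCs, beside 16.5% of all genes tested (8.84% higher and 7.63% lower). No value of one age reached into the range of the other for 14 members (38.9%), 3 higher and 11 lower, beside 22.4% of all genes (11.6% higher and 10.8% lower). All 36 members passed the filter on low counts, and the member with the fewest reads still had 301 counts over the 6 libraries.

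Among the cytosolic enzymes, Hars stood at 80.4, 73.6 and 70.1 CPM in young replicates 1 to 3 and at 55.6, 41.4 and 44.4 CPM in old replicates 1 to 3. Every old library lay below every young one. Its log2 fold change was −0.66 ± 0.16 (SE), or 1.58-fold lower (edgeR, adjusted p = 0.0441). The call was narrow. It was lost when any 1 of the 6 libraries was left out, with log2 values between −0.79 and −0.57 and adjusted p from 0.0582 (without old replicate 1) to 0.197 (without old replicate 3, edgeR). In the genome Hars (chr18:36766528-36783205, minus strand, GRCm38) lies back to back with Hars2, its mitochondrial counterpart, and the 2 genes share 195 exonic bases on opposite strands. Whether the counting used the strand is not given in the sources used here. Hars2 had a log2 value of −0.27 (edgeR, adjusted p = 0.607).

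Yars, which charges tyrosine, had the lowest log2 value of all members. Its levels were 39.5, 32.5 and 33.5 CPM in young replicates 1 to 3 and 24.7, 19.96 and 21.5 CPM in old replicates 1 to 3. The groups were well apart, and the log2 value was −0.67 ± 0.20 (SE), but edgeR's adjusted p was 0.0883. DESeq2 called it on the same counts, at an adjusted p of 0.0215. Mars charges the methionine tRNAs, including the initiator that starts every protein. It was at 58.0, 35.1 and 32.9 CPM in young and at 28.4, 30.2 and 23.4 CPM in old replicates 1 to 3. Young replicate 1 was far above the rest, and without it the log2 value of −0.62 (edgeR, adjusted p = 0.209) became −0.32. Mars shares 68 exonic bases on opposite strands with Ddit3, which was at 5.36 to 8.24 CPM in all libraries.

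The glutamine enzyme Qars went the other way. It was at 40.6, 34.1 and 34.6 CPM in young and at 44.4, 62.1 and 47.7 CPM in old replicates 1 to 3. The groups did not overlap, with old replicate 2 the highest, and the log2 value was 0.49 (edgeR, adjusted p = 0.194). The plot of levels by library shows these 4 cytosolic genes beside 4 mitochondrial ones.

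**Figure D2:**
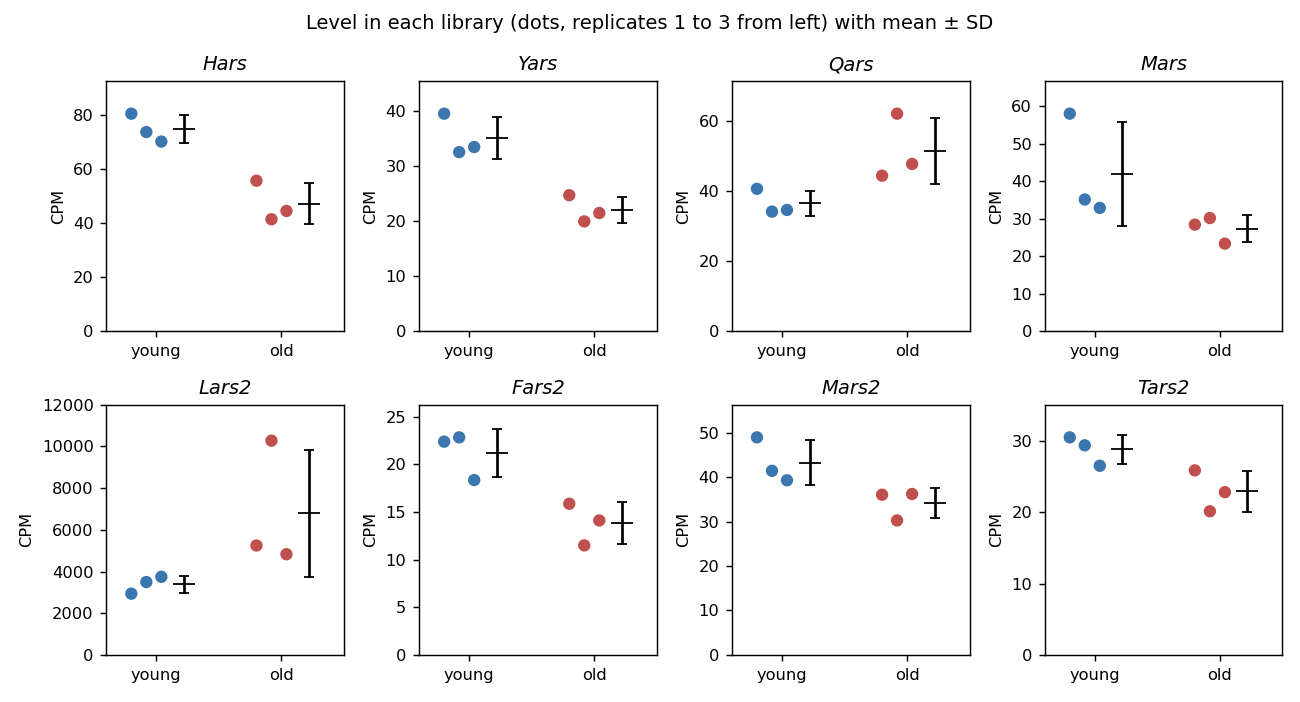
CPM (y axis) in each library for the 4 members with the smallest p in each compartment; dots are replicates 1 to 3 from left within each age group (x axis), and the bar beside them is the mean ± SD (n = 3). Young and old dots do not overlap in any of the 8 panels, with Qars and Lars2 higher and the other 6 lower in old HSCs. The genes shown were chosen by p from the same values, so this separation adds no support. Of all genes tested, 22.4% had groups that did not overlap.

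The remaining 16 cytosolic genes had log2 values between −0.67 (Cars, cysteine) and 0.38 (Sars, serine), and edgeR, DESeq2 and limma-voom called none of them. Of these 16, 4 (Farsb, Iars, Vars and Sars) reached an unadjusted p under 0.05 (edgeR), beside 16.5% of all genes tested. Farsb, the beta subunit of the phenylalanine enzyme (−0.43), Vars, which charges valine (−0.31), Iars, which charges isoleucine (−0.25), Gars (−0.23) and Tars, which charges threonine (−0.20), were lower in every old than in every young library. Sars was higher in every old library, at 36.8 to 39.9 CPM beside 28.3 to 30.3 CPM. The groups did not overlap for 22.4% of all genes tested (11.6% higher and 10.8% lower in old HSCs). Eprs, a fused enzyme for glutamate and proline, had the smallest error of all members, with a log2 value of 0.02 ± 0.10 (SE; edgeR, adjusted p = 0.955).

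In vertebrates several cytosolic synthetases sit in one large multi-synthetase complex. Its 8 genes (Dars, Eprs, Iars, Kars, Lars, Mars, Qars and Rars) had a median log2 value of −0.06, and edgeR called 0 of them. Of these 8, 3 reached an unadjusted p under 0.05 (edgeR), 1 higher and 2 lower, beside 16.5% of all genes tested. DESeq2 and limma-voom called 0 of the 8. The 12 cytosolic genes outside the complex had a median of −0.27, with 10 below 0 and Hars called. Summed over its genes, the complex stood at 1276, 1150 and 1098 CPM in young and at 1108, 1153 and 1099 CPM in old replicates 1 to 3. Those ranges overlapped. The genes outside the complex summed to 833, 684 and 705 CPM in young and to 637, 626 and 581 CPM in old replicates 1 to 3, with every old library lower. Whether the 2 sets differ was not tested.

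Young replicate 1 was the highest of the 6 libraries for 11 of the 20 cytosolic genes, as the heat map of all members shows, and it is also the library with the most erythroid and neutrophil marker RNA, as given above. The 20 genes summed to 2109, 1835 and 1803 CPM in young and to 1745, 1779 and 1679 CPM in old replicates 1 to 3, a ratio of 0.905. The old libraries lay below the young ones, the nearest values being 1803 and 1779 CPM. Without young replicate 1 the ratio was 0.954 and the median log2 value of the cytosolic genes was −0.21, beside −0.20 with it.

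**Figure D3:**
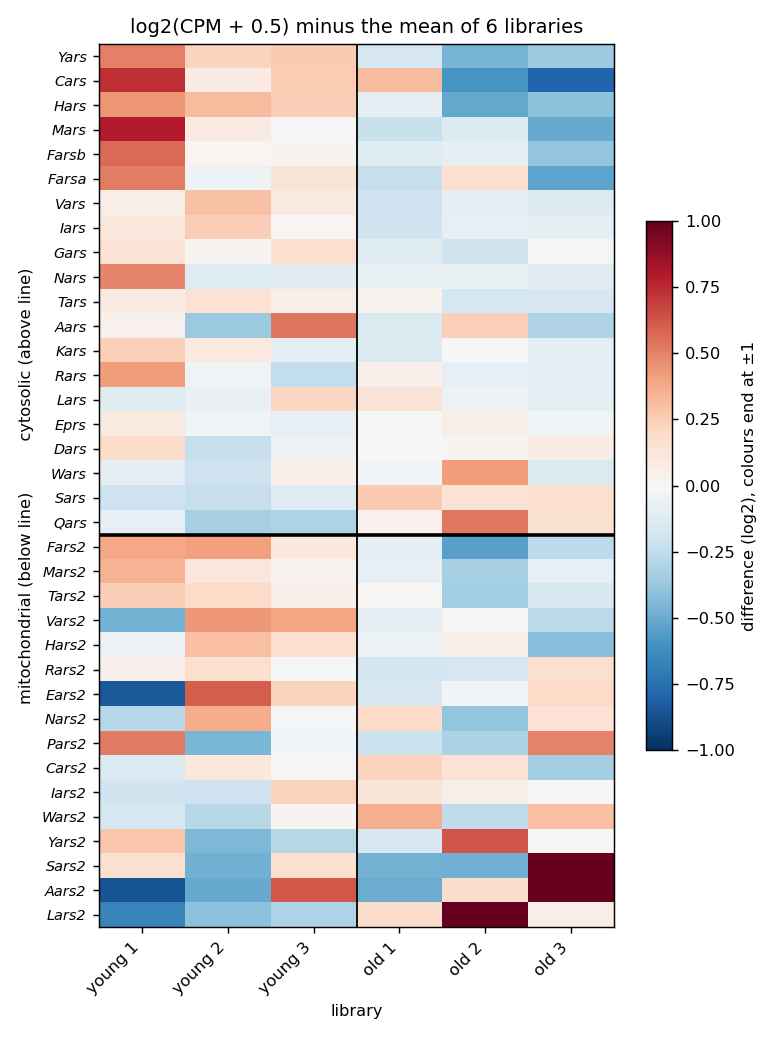
Each synthetase gene (rows, cytosolic above the horizontal line and mitochondrial below it, sorted by log2 fold change) in each library (columns), coloured by log2(CPM + 0.5) minus the mean of the 6 libraries. Young replicate 1 is the highest library for 11 of the 20 cytosolic genes, and old replicate 2 stands out for Lars2.

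Lars2 was unlike the other members in its level. It stood at 2937, 3495 and 3746 CPM in young replicates 1 to 3 and at 5248, 10277 and 4830 CPM in old replicates 1 to 3. Every old library was above every young one, and old replicate 2, the library with the fewest counts, was far above the other old libraries. The log2 fold change was 1.00 ± 0.23 (SE; edgeR, adjusted p = 0.0328). Without old replicate 2 it was 0.58 and still called (edgeR, adjusted p = 0.0269). The call was lost without any 1 of the young libraries (edgeR, adjusted p = 0.105, 0.0871 and 0.0614 without young replicates 1 to 3) and with DESeq2 (adjusted p = 0.0972).

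Lars2 alone took between 0.290% and 0.396% of all counts in young and between 0.475% and 0.981% in old libraries. By counts, which are not corrected for length, it was among the top 15 genes of every library. It made up 54.2% to 82.7% of the counts of all 36 members. Per kilobase of exon it reached 306 CPM in young HSCs, 48.3 times the median of the other 35 members, while its cytosolic counterpart Lars was at 17.4 CPM per kilobase.

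The Lars2 gene (chr9:123366927-123462666, plus strand, GRCm38) has a main transcript of 3894 bases, of which bases 2906 to 3894 are the 3′ UTR. Within that UTR, bases 3278 to 3349 matched the transcript Gm15564-202 at 98.6% identity over 72 bases, which is longer than the 50-base reads. The beginning of the shared stretch, read from the Gm15564 transcript in the GRCm38 annotation, is shown because reads from it could be assigned to either gene:
Gm15564-202, bases 179 to 208: gaattcaccaagcgttggattgttcaccca
Gm15564 is not among the 16312 genes counted, so it has no value to set beside Lars2. How many of the Lars2 counts came from the shared stretch was not tested, since the files hold counts per gene only.

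A gene that resembles ribosomal RNA moved in the same direction as Lars2. Gm20594, a predicted gene, matched the mitochondrial large ribosomal RNA gene mt-Rnr2 at 88.5% identity. The alignment was 435 positions long and covered bases 1 to 432 of the 449-base Gm20594 transcript. Gm20594 was at 7340, 7904 and 5792 CPM in young and at 8867, 14307 and 10206 CPM in old replicates 1 to 3. Every old library was above every young one and old replicate 2 was again the highest. Its log2 fold change was 0.67 ± 0.16 (SE; edgeR, adjusted p = 0.0396), and 0.45 without old replicate 2, where the call was lost (adjusted p = 0.132). Of 12 alternative fits (other methods, scalings or filters, or 1 library left out), Gm20594 was called in 6. The ratio of Lars2 to Gm20594 counts ranged from 0.400 to 0.718 over the libraries. In the search for shared stretches (at least 50 bases at 95% identity) the main Lars2 transcript matched Gm15564 only, and neither Gm20594 nor mt-Rnr2. The part of ribosomal RNA in the Lars2 counts was not tested.

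**Figure D4:**
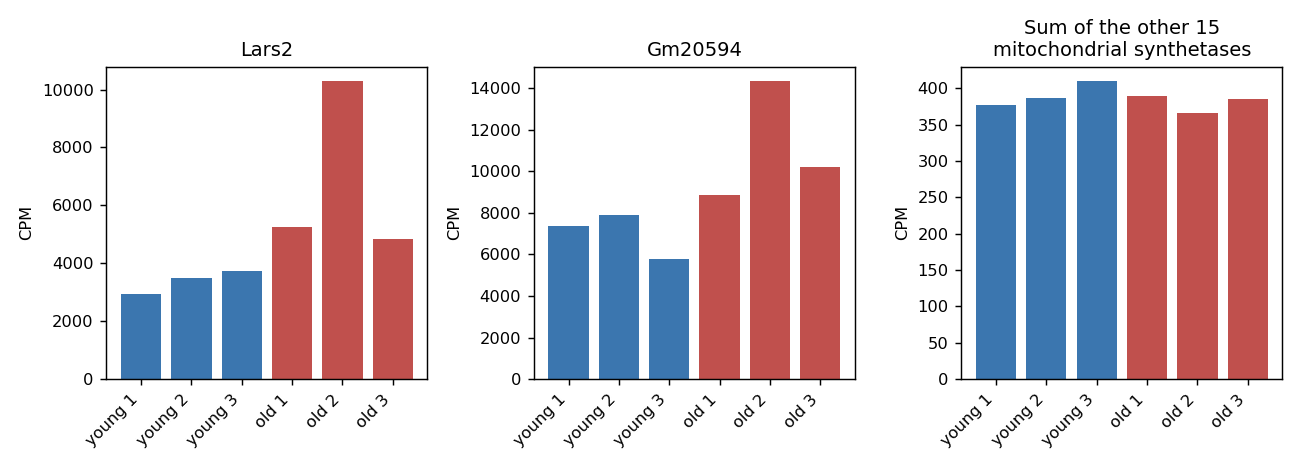
CPM (y axis, each from 0) in each of the 6 libraries for Lars2 (left), Gm20594 (middle) and the sum of the other 15 mitochondrial synthetases (right). Lars2 and Gm20594 are both highest in old replicate 2, while the sum of the other 15 stays between 365 and 409 CPM.

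Without Lars2 the mitochondrial set overlapped between ages. The other 15 genes summed to 378, 387 and 409 CPM in young and to 389, 365 and 386 CPM in old replicates 1 to 3, a ratio of 0.971. With Lars2 in the sum the ratio was 1.89, and 1.43 without old replicate 2. EdgeR called 0 of the 15, DESeq2 and limma-voom called 0, and 1 (Fars2) reached an unadjusted p under 0.05 (edgeR), beside 16.5% of all genes tested.

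Fars2 charges phenylalanine in mitochondria. It was at 22.4, 22.8 and 18.3 CPM in young and at 15.9, 11.5 and 14.1 CPM in old replicates 1 to 3, a log2 value of −0.61 ± 0.24 (SE; edgeR, adjusted p = 0.217). All old libraries lay below all young ones, and the gene shares 115 exonic bases on opposite strands with Lyrm4. Mars2, the mitochondrial methionine enzyme, was at 49.0, 41.5 and 39.3 CPM in young and at 36.1, 30.3 and 36.2 CPM in old replicates 1 to 3 (log2 −0.34; edgeR, adjusted p = 0.393). Tars2, the threonine enzyme, was at 30.5, 29.4 and 26.5 CPM in young and at 25.9, 20.1 and 22.8 CPM in old replicates 1 to 3 (log2 −0.33; edgeR, adjusted p = 0.479). Both were lower in every old than in every young library, by less than the test could call.

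The other 12 mitochondrial genes overlapped between ages, with log2 values from −0.30 (Vars2) to 0.60 (Aars2). Of all members, 5 had means under 10 CPM in both groups, and these were all mitochondrial (Aars2, Cars2, Ears2, Pars2 and Sars2). Aars2, the alanine enzyme, had 17 to 103 counts per library and the widest error (log2 0.60 ± 0.69, SE), so a difference of the size seen for Lars2 was not detectable at this depth.

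Per kilobase of exon, the cytosolic genes in young HSCs ran from 2.39 CPM (Cars) to 51.4 CPM (Iars), with a median of 16.2 CPM. The 15 mitochondrial genes other than Lars2 ran from 0.359 CPM (Aars2) to 12.9 CPM (Iars2), with a median of 3.69 CPM. For 13 amino acids the members hold a cytosolic and a mitochondrial gene of the same name but for the ending 2. The cytosolic gene was the higher per kilobase in 11 of these pairs, the exceptions being leucine, through Lars2, and tyrosine, where Yars2 was at 7.75 and Yars at 5.92 CPM per kilobase. Per kilobase of longest transcript the tyrosine order was the reverse, with Yars at 12.1 and Yars2 at 8.70 CPM in young HSCs. The tyrosine exception therefore depends on the length used. Some of these counts could come from neighbouring genes, since Aars shares 1326 exonic bases with Exosc6 on the same strand and Iars2 shares 2034 with Rab3gap2 on opposite strands. Phenylalanine is outside these pairs, since its cytosolic enzyme has 2 subunits, Farsa at 3.30 and Farsb at 41.5 CPM per kilobase, beside Fars2 at 3.69. The log2 fold changes of the 2 genes of a pair had the same sign in 8 of the 13 pairs, several of them close to 0.

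Synthetases fall into 2 structural classes, by the fold of the catalytic domain. The 18 class I genes had a median log2 value of −0.11 and included Lars2 as the only gene that rose. The 17 class II genes had a median of −0.20 and included Hars as the only gene that fell. Kars belongs with class II in mammals, and the double enzyme Eprs was placed in neither class.

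The amino acid response offers a comparison outside the members. Atf4 transcripts were at 90.0, 74.4 and 97.1 CPM in young and at 158, 160 and 170 CPM in old replicates 1 to 3. The old libraries lay well above the young ones, and Atf4 rose by 0.90 ± 0.13 on the log2 scale (SE; edgeR, adjusted p = 0.0027). Ppp1r15a encodes the phosphatase subunit that reverses the translational block upstream of Atf4. It was at 46.4, 40.0 and 51.5 CPM in young and at 198, 237 and 185 CPM in old replicates 1 to 3, the largest rise among the genes of this list (log2 2.17 ± 0.15, SE; edgeR, adjusted p = 9.14e-06). These 2 genes rose and none fell among the 23 tested genes of the response. At an unadjusted p under 0.05 (edgeR), 3 of the 23 were higher and 7 lower in old HSCs. That is 43.5% of them, beside 16.5% of all genes tested (8.84% higher and 7.63% lower).

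No synthetase listed as an Atf4 target was called as higher in old HSCs. EdgeR called 0 of the 13, limma-voom called 0 and DESeq2 called 1, Yars, as lower. Their median log2 value was −0.20, with 10 of 13 below 0, and 5 reached an unadjusted p under 0.05, 1 higher (Sars) and 4 lower (Yars, Mars, Iars and Vars). Over all genes tested, 51.8% were below 0 and 16.5% reached an unadjusted p under 0.05 (8.84% higher and 7.63% lower, edgeR). DESeq2 called 7.7% of all genes. The 7 other cytosolic genes had a median of −0.16. Other genes of the response went both ways without passing edgeR's test. Picked after their values were seen, the asparagine synthetase Asns had a log2 value of 0.54 (edgeR, adjusted p = 0.325), the pseudokinase Trib3 0.88 (adjusted p = 0.348), the serine synthesis enzyme Phgdh −0.61 (adjusted p = 0.111) and the mitochondrial folate enzyme Mthfd2 −1.91 (adjusted p = 0.0579). DESeq2 called 4 genes of the response, 2 as higher and 2 as lower.

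**Figure D5:**
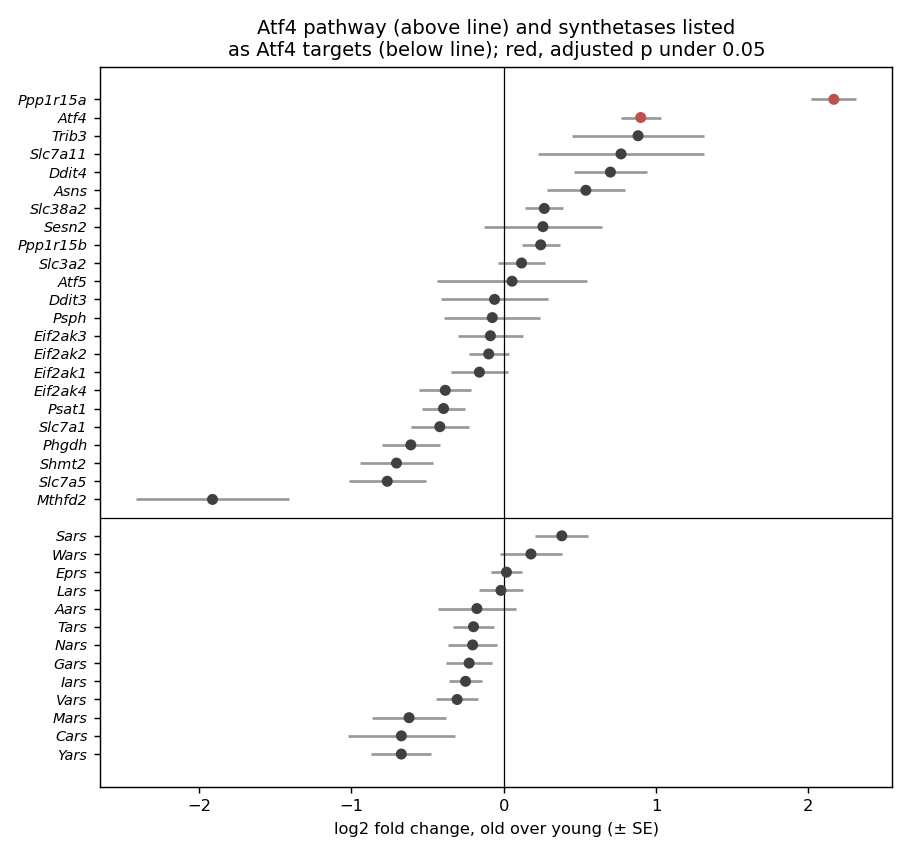
Log2 fold change, old over young (x axis, bars of 1 SE), of 23 genes of the amino acid response (above the line) and of the 13 synthetases listed as Atf4 targets (below it). Red marks edgeR's calls at an adjusted p under 0.05, which are Ppp1r15a at 2.17 and Atf4 at 0.90 and include none of the synthetases.

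Promoters of the members were searched for the composite element that Atf4 is known to bind with C/EBP partners, spelled TTNCATCA, or TGATGNAA on the other strand, both strands counted. RefSeq promoters of GRCm38.p6, from 250 bases before to 50 bases after the start site, were matched for 27 of the 36 members. Cars, Hars, Hars2, Lars, Nars, Pars2, Rars, Vars and Wars were not matched. The element was found in 5 of 13 cytosolic and 0 of 14 mitochondrial promoters, and the 5 were among the 8 matched genes listed as Atf4 targets (62.5%). It was present in 4 of 22 promoters of the amino acid response (Asns, Chac1, Slc7a11 and Trib3; 18.2%) and in 4.51% of 27025 genes with a promoter. For each of these 5 synthetase genes the window around the match nearest the start site is shown so that the element can be read beside the values of each gene, in capitals and in the direction of transcription:
Yars, chr4:129189895-129189924, plus strand: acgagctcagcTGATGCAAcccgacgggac
Gars, chr6:55037960-55037989, plus strand: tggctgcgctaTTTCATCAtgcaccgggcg
Aars, chr8:111033840-111033869, plus strand: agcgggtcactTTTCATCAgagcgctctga
Iars, chr13:49682126-49682155, plus strand: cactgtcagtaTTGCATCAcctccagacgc
Tars, chr15:11399655-11399684, minus strand: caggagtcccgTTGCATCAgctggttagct
Yars carried the element in the reverse orientation. The log2 values of these 5 genes were −0.18 for Aars, −0.23 for Gars, −0.25 for Iars, −0.20 for Tars and −0.67 for Yars, all below 0 and none called by edgeR. Without young replicate 3 the value for Aars was 0.095. A match describes the letters of the window and is no measurement of binding.

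Among genes of other steps of tRNA charging and decoding, few passed the test. Eef1a1, the factor that carries charged tRNAs to the ribosome, was at 8453, 8410 and 7614 CPM in young and at 9665, 10910 and 10371 CPM in old replicates 1 to 3. All old libraries were higher, and Eef1a1 rose by 0.34 ± 0.08 on the log2 scale (SE; edgeR, adjusted p = 0.0325), a call lost without any 1 of young replicates 2 and 3 and old replicates 2 and 3 (adjusted p = 0.0776, 0.0673, 0.114 and 0.141). It was the only one of 7 cytosolic elongation genes that edgeR called, while 3 of the 7 (Eef1a1, Eef1b2 and Eef2) were higher and 0 lower at an unadjusted p under 0.05. Of all genes tested, 8.84% were higher and 7.63% lower at that threshold (edgeR).

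EdgeR called 0 of the 3 scaffold genes of the multi-synthetase complex, where 1 reached an unadjusted p under 0.05 and DESeq2 called 0. The scaffold with the smallest p, Aimp2, had a log2 value of −0.58 (edgeR, adjusted p = 0.255). It called 0 of 13 further charging and proofreading enzymes, with 2 lower at an unadjusted p under 0.05. The smallest p among these belonged to Aarsd1, which clears wrongly charged alanine tRNA, at a log2 value of −0.70 (edgeR, adjusted p = 0.102; DESeq2 called it as lower).

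Over all the lists of this kind, the amino acid response included, DESeq2 called 8 genes and limma-voom 3. These lists held 3, 13, 37, 9, 7, 9 and 23 tested genes. Of all genes, DESeq2 called 7.7% and limma-voom 3.95%, and 16.5% reached an unadjusted p under 0.05 with edgeR. Genes that mature and modify tRNAs gave 0 calls by edgeR among 37, with 1 higher and 1 lower at an unadjusted p under 0.05 and 0 calls by DESeq2. Adat3, a subunit of the deaminase that makes inosine at the wobble base, was first by p at a log2 value of 1.75 ± 0.76 (SE; edgeR, adjusted p = 0.272), from a level of 0.925 CPM in young HSCs. Among 9 genes for mitochondrial tRNAs edgeR called 0, with 3 higher and 1 lower at an unadjusted p under 0.05, and DESeq2 called 2. Hsd17b10, a subunit of mitochondrial RNase P, was first by p at a log2 value of 0.64 (edgeR, adjusted p = 0.0799). Picked after its values were seen, Cdk5rap1, which modifies mitochondrial tRNAs, had a log2 value of −1.33 (edgeR, adjusted p = 0.0801), and DESeq2 called it as lower. Of 9 mitochondrial elongation and termination genes edgeR and DESeq2 called 0 and 1 reached an unadjusted p under 0.05, Gfm1, the mitochondrial elongation factor G, at a log2 value of −0.41 (edgeR, adjusted p = 0.181).

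The authors' deposited table gives its fold changes as young over old, as read by comparing their signs with the counts. There, in the authors' deposited table, an adjusted p under 0.05 was given for 3 members, beside 6.17% of the genes with an adjusted p. These were Hars at a log2 value of 0.59 (adjusted p = 0.0186), Fars2 at 0.69 (adjusted p = 0.0331) and Lars2 at −0.89 (adjusted p = 0.00475) in the authors' deposited table, the same directions as in the counts. Yars was at 0.63 in the authors' deposited table (adjusted p = 0.067).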

How the data were processed

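Libraries were made with a low-input kit from RNA of the sorted cells and read as 50-base single ends, per the labels' protocols. GRCm38, Salmon, FastQC, MultiQC and DESeq2 are named, with no version or role, in the submitters' processing notes. The authors' estimated counts were deposited as whole numbers, 1 column per library, for 16312 genes. The authors' deposited comparison table gives a base mean (a normalised signal), a log2 fold change with its standard error, a test score, a p-value and an adjusted p-value per gene. Only its log2 values and adjusted p were used. Samples are biological replicates per the series' design text, 3 for each age, and p-values measure their spread. For young replicate 2 the title and the description differ in the library number, and the title was used to find its column.

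Symbols (found for 16301 genes), exon lengths and coordinates, counted from 1, were taken from an annotation of GRCm38. Counts were fitted in R 4.3.3 with edgeR 4.0.16 (default filter, minimum count 10 and minimum total 15, leaving 14288 genes; TMM scaling; quasi-likelihood F test, two-sided; Benjamini-Hochberg over all genes tested; threshold 0.05). DESeq2 1.42.0 and limma 3.58.1 (voom), other scalings and filters, and leaving out each library were tried as alternatives. Standard errors of edgeR's values were computed as the absolute log2 fold change over the square root of the F statistic. The fit was tested on simulated data. Shared sequence was searched with blastn 2.17.0 over stretches of at least 50 bases at 95% identity. Members and gene lists were chosen with earlier results of these data known, so lists are described by counts and medians and carry no test. Values per library are given for members called, for Lars2 and for the 4 smallest p in each compartment, and of each other list for the called genes, or else the gene with the smallest p is named. A further promoter sequence is not reported here.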

Additional observations from a re-analysis of the deposited data

How the results depend on the processing

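For the 35 members other than Lars2, 13 alternatives gave 455 comparisons with the reported values. Of these, 420 kept the direction and the side of the threshold, 8 (all Hars) lost the call, 1 (Yars, with DESeq2) gained it and 26 changed sign. The 26 belong to 13 genes that were called neither before nor after. With library size as the only scaling Eprs was at −0.035 and Cars2 at −0.025 on the log2 scale, and with limma-voom Cars2 was at −0.0063, Nars2 at 0.0046 and Pars2 at 0.039. With 1 library left out the log2 values ran from −0.37 to 0.095 for Aars, −0.030 to 0.18 for Dars, −0.018 to 0.072 for Eprs, −0.082 to 0.094 for Lars, −0.31 to 0.028 for Nars, −0.25 to 0.099 for Rars and −0.0023 to 0.30 for Wars. Among the mitochondrial genes they ran from −0.032 to 1.38 for Aars2, −0.076 to 0.20 for Cars2, −0.44 to 0.24 for Ears2, −0.19 to 0.15 for Nars2, −0.35 to 0.29 for Pars2 and −0.53 to 0.65 for Sars2. Hars was lost with no filter (adjusted p = 0.0603, edgeR), with limma-voom (adjusted p = 0.0522) and in each fit without 1 library. The number of genes called was 1100 with DESeq2 and 245 to 473 with 1 library left out, beside 570. Members called, 2 in the report, were 1 with no filter, 1 with limma-voom, 1 with Lars2 and Gm20594 taken out, and 0 to 1 with 1 library left out. Cytosolic calls were 0 with no filter, 2 with DESeq2, 0 with limma-voom and 0 in every fit without 1 library. Mitochondrial calls were 0 with DESeq2, 0 with Lars2 and Gm20594 taken out, and 0 to 1 with 1 library left out. DESeq2 called 1 of the genes listed as Atf4 targets and 8 of the other pathway genes, beside 3. For Lars2 the log2 value was 1.01 with DESeq2 (adjusted p = 0.0972) and 0.58 to 1.21 with 1 library left out. The cause of these differences was not tested. Fits without a library also had fewer samples, and that part was not separated from the values of the library left out.

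The median log2 value of the mitochondrial members was −0.17 to 0.062 with 1 library left out, so its sign is not stable. The median of the genes listed as Atf4 targets was −0.25 with library size as the only scaling, which moved the median of all genes from −0.02 to −0.07 and gave 310 higher and 298 lower genes beside 350 and 220. The summed mitochondrial ratio was 0.971 with Lars2 left out of the sum, and Lars2 stood 76.6 times above the median member per kilobase of longest transcript. No paired analysis was possible because replicates were numbered by accession order within each age, which links no young mouse to an old one. With 3 libraries a group and standard errors of 0.20 at the median member, changes of 2-fold or less could be missed. The 5 members under 10 CPM are the least precise.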
